A study of Mus musculus with 14 samples.

Results

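The genes described are the mouse class I and class II histocompatibility genes, taken as all protein-coding genes placed on chromosome 17 of the mm10 annotation (GRCm38.p6) whose symbol starts with H2-. The rule found 35 genes among 21774 protein-coding genes, and no measured value entered it. Of these, 25 are class I genes (1 H2-K, 1 H2-D, 6 H2-Q, 5 H2-T and 12 H2-M genes) and 9 are class II genes. The remaining member, H2-Ke6, carries the prefix by position only and encodes a hydroxysteroid dehydrogenase, so it is counted with neither class. The annotation places 3 further coding genes of the prefix, H2-Q8, H2-Q9 and H2-T18, on separate sequences, and they are not analysed here. H2-T-ps is annotated as protein-coding in spite of its name and stayed a member.

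The chromatin was that of C57BL/6J hearts, from cell preparations enriched for cardiomyocytes and taken either 1 week after transverse aortic constriction (TAC), a surgical narrowing of the aorta that loads the left ventricle, or from sham mice, whose treatment the labels give as none. It was immunoprecipitated with antibodies against G9a (Sigma), H3K9me2 (Abcam) and H3K27me3 (Millipore), with 2 replicates per antibody and condition, and 1 input library was made per condition. Sex, age and any pooling of hearts are not given in the labels. The design text calls the replicates biological.

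Class I molecules display peptides from inside the cell to killer T cells, as a heavy chain bound to the light chain that B2m encodes, and class II molecules display endosomal peptides to helper T cells on professional antigen-presenting cells. The classical class I genes H2-K1 and H2-D1 are expressed in most nucleated cells, while many H2-Q, H2-T and H2-M genes have restricted expression, among them the H2-M genes that vomeronasal neurons express. G9a is the methyltransferase that places H3K9me2 in euchromatin, and H3K27me3 is the mark of Polycomb repression. Both marks are associated with repressed genes.

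For each antibody the authors deposited a table of differing regions. Each region carries 4 values, a first pair and a second pair, and the authors' p-value, which was at most 0.01. The tables do not say which pair is TAC, so directions are given by pair, and every log2 difference is second over first pair, of the pair means plus 1. Over the listed regions the values of a library summed to between 36881071 and 48327896 for G9a, to between 22175663 and 23973355 for H3K9me2 and to between 112764904 and 143213031 for H3K27me3. The tables do not name replicates either, so a library is called by its place in its pair. One G9a library, the first value of the second pair, stands apart, with 9.34% of listed regions at 0, against 0.163% to 1.4% in the other 3 libraries. A region counted for a gene when it overlapped the gene body or the 2500 bp on either side by at least 1 bp, and a region shared by neighbours was counted once. By this rule 293 of 1186054 listed regions lay at the 35 genes: 110 of 388424 in the G9a table, 46 of 245088 in the H3K9me2 table and 137 of 552542 in the H3K27me3 table. Regions of all 3 tables lay at 21 of the genes, regions of 2 tables at 13, and regions of G9a alone at H2-Ke6.

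The upstream sequences of 7 members are shown for the start sites on or beside which the listed regions described below fall. Each is the 200 bases before the RefSeq start site (GRCm38.p6), 5′ to 3′ in gene direction, with motif matches of either strand in capitals. H2-K1 is at chr17:34000348-34000547 on the minus strand, H2-D1 at chr17:35262894-35263093 on the plus strand, H2-Q7 at chr17:35438955-35439154 on the plus strand and H2-M9 at chr17:36642664-36642863 on the minus strand. Of the class II genes, H2-Oa is at chr17:34092179-34092378 and H2-Ob at chr17:34238705-34238904, both on the plus strand, and H2-Aa is at chr17:34287824-34288023 on the minus strand.
H2-K1: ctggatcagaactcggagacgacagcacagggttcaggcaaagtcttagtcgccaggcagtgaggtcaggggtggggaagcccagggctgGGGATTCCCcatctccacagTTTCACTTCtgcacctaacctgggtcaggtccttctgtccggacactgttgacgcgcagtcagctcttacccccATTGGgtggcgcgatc
H2-D1: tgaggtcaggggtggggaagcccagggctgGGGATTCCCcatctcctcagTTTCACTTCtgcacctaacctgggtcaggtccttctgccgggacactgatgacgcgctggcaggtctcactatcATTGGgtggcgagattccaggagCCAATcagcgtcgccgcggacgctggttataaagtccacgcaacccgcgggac
H2-Q7: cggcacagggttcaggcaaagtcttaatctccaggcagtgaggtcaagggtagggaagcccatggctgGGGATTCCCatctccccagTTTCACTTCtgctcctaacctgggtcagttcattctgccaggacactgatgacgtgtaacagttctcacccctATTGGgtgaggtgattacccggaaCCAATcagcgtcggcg
H2-M9: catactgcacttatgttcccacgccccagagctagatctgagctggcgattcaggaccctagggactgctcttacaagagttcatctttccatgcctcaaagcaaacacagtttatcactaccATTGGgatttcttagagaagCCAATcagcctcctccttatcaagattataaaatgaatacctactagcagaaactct
H2-Oa: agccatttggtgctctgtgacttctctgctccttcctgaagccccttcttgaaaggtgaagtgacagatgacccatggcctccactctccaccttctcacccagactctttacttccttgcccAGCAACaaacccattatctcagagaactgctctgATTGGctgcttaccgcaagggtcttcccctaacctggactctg
H2-Ob: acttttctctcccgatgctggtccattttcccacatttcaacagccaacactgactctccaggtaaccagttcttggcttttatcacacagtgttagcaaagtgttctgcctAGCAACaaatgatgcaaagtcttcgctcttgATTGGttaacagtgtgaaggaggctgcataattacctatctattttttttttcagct
H2-Aa: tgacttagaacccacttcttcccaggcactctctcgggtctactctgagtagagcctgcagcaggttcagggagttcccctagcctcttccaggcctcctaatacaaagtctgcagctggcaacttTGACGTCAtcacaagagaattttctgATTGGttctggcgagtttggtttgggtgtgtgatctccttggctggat

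The motifs searched were CCAAT (the Y box), AGCAAC (the core of the X1 box), TGACGTCA (the X2 box), GGGATTCCC (the core of enhancer A, bound by NF-kappa-B factors) and GAANNGAAA (an interferon response motif), and no matches of different motifs overlapped in the sequences shown. CCAAT lay in 20 of 23 class I and 7 of 8 class II promoters with a RefSeq sequence, and in 32% of 17492 promoters of all genes. AGCAAC was found in 4 class II promoters, those of H2-Oa, H2-Ob, H2-Eb1 and H2-Eb2, in 0 class I promoters and in 9.64% of all promoters. TGACGTCA lay in H2-Aa alone among the members and in 1.94% of all promoters. GGGATTCCC lay in 4 class I promoters, those of H2-K1, H2-D1, H2-Q6 and H2-Q7, in 0 class II promoters and in 45 promoters of the whole set (0.257%). GAANNGAAA lay in 8 class I promoters, 0 class II promoters and 4.55% of all promoters. A match describes these letters only. Several members are near copies of each other. They were compared in promoter windows that are longer than the sequences printed and reach past the start site. The windows of H2-T23 and H2-T-ps share a run of 86 identical bases, and those of H2-Q6 and H2-Q7 a run of 67. The run was 65 for H2-M10.3 and H2-M10.5, 60 for H2-M9 and H2-M1, and 47 for H2-K1 and H2-D1. How the authors placed reads that match several copies is not given, so values at such pairs are uncertain.

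H3K27me3 was the antibody with the most listed sequence at these genes, and most of it was listed as higher in the second pair. Second-pair regions lay at 31 of 35 members, against 50.7% of all coding genes, and first-pair regions at 25 of 35, against 58.6% of all coding genes. All 9 class II genes and 22 of 25 class I genes had a second-pair region. The exceptions were H2-M1 and H2-M3, which had first-pair regions only, and H2-M2 and H2-Ke6, which had none. By regions the split was 94 second-pair and 43 first-pair regions, while among all listed H3K27me3 regions 42.7% took the second pair's direction and 57.3% the first's. Second-pair regions covered 65.6% of the class II windows and 45.6% of the class I windows, and 12.4% of the windows of all coding genes. First-pair regions covered 4.94% of the class II windows and 10.5% of the class I windows, and 7.38% of all windows.

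**Figure D1:**
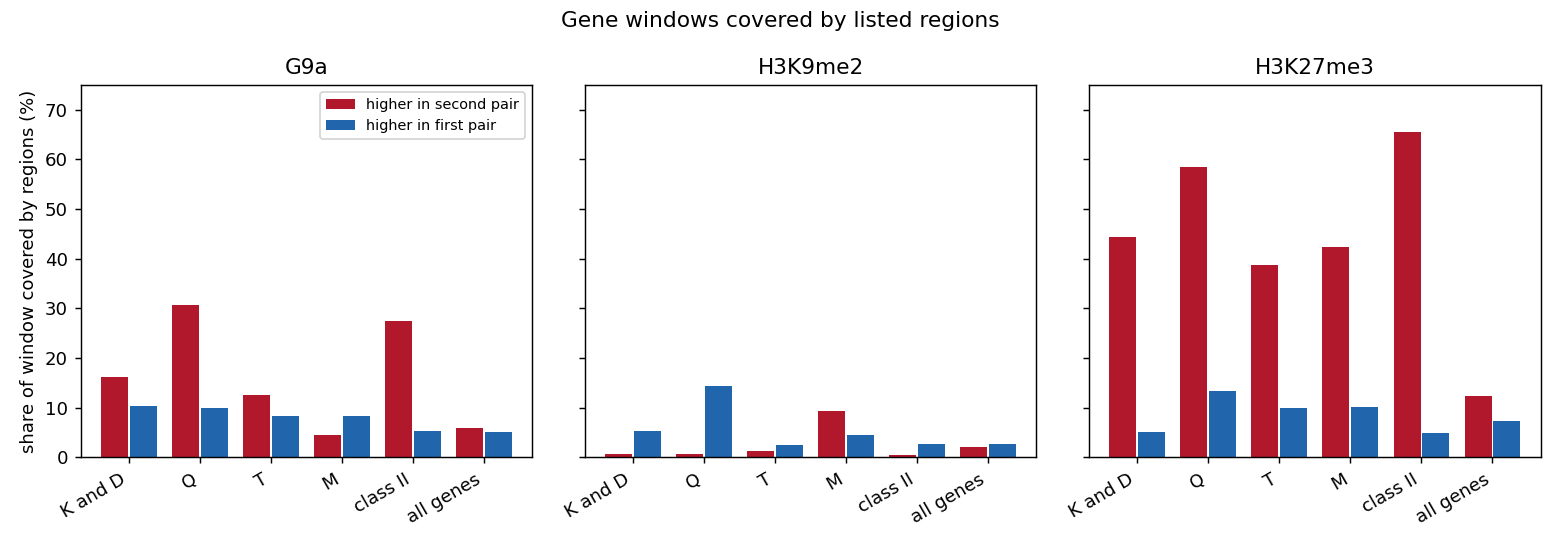
Share of the merged gene windows (body and 2500 bp on either side) covered by listed regions, in percent, for each family and for all protein-coding genes, with 1 panel per antibody; red bars are regions higher in the second pair and blue bars regions higher in the first. H2-K1 and H2-D1 are drawn together as K and D. For H3K27me3 the red bar is the taller in each group drawn. Among the families it runs from 38.7% in T to 65.6% in class II, beside 12.4% for all protein-coding genes. For H3K9me2 the blue bar reaches 14.3% in the Q family.

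The class II genes H2-DMa, H2-DMb2 and H2-DMb1, which encode the peptide editor of the class II pathway, shared the H3K27me3 region with the smallest p of all members. It spans 18250 bp at chr17:34136651-34154900 and had deposited values of 9431 and 8333 in the second pair, against 4401 and 4739 in the first. The pairs did not overlap, the log2 difference was 0.96, and the p of 3.61e-304 in the authors' deposited table is the 93rd smallest of that table. Downstream of it, a second region at H2-DMb1 (chr17:34155351-34162300) had 3312 and 3279 in the second pair, against 2052 and 2377 in the first. H2-Oa and H2-Ob encode the chains of DO, which modulates DM. H2-Oa (chr17:34081051-34095500) had 6126 and 4880 in the second pair, against 3607 and 3420 in the first, a log2 difference of 0.65. At H2-Ob the region over the start site (chr17:34235151-34242950) had 3541 and 3287 in the second pair, against 1406 and 1994 in the first, a log2 difference of 1.01. Downstream in the same gene (chr17:34243001-34252150) the values were 3535 and 3332 in the second pair, against 2518 and 1762 in the first. At these regions of both DO genes the second-pair libraries were the higher, without overlap, and the regions over the start sites extend over the AGCAAC and CCAAT matches printed above. H2-Oa also had a short first-pair region (chr17:34096501-34097250), with 102 and 114 in the second pair, against 136 and 182 in the first.

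H2-Aa and H2-Ab1 encode the alpha and beta chains of I-A, the class II molecule that C57BL/6 mice display. H2-Ab1 (chr17:34260451-34265250) had 2755 and 2866 in the second pair, against 1979 and 1661 in the first, a log2 difference of 0.63. At H2-Aa the region with the smallest p (chr17:34278401-34285000) had 2101 and 2250 in the second pair, against 1557 and 1161 in the first, a log2 difference of 0.68. The start site of H2-Aa, with its TGACGTCA match, lay in a shorter region (chr17:34287001-34290150) with 781 and 908 in the second pair, against 528 and 334 in the first. The I-E beta genes were less uniform. H2-Eb2 had 2923 and 2534 in the second pair at chr17:34332351-34338300, against 1365 and 1445 in the first, a log2 difference of 0.96. H2-Eb1 had 1098 and 914 in the second pair upstream of its start (chr17:34300951-34304200), against 686 and 644 in the first. Along H2-Eb1 the direction alternated: chr17:34314001-34315100 had 244 and 266 in the second pair, against 172 and 55 in the first, and chr17:34317651-34318650, just past the gene end, had 109 and 100 in the second pair, against 314 and 119 in the first. C57BL/6 mice lack surface I-E because the alpha chain gene is defective, and the annotation lists that gene, H2-Ea, as a pseudogene.

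At the 2 classical class I genes the pairs did not overlap in 2 of 6 second-pair H3K27me3 regions. The counts were 51 of 69 in class I as a whole and 21 of 25 in class II, beside 71.4% in the whole table. At H2-D1 the region over the start (chr17:35261001-35264550) had 1600 and 1041 in the second pair, against 730 and 1166 in the first, so the pairs overlapped, and the log2 difference was 0.48. At H2-K1 all 4 regions had overlapping pairs. Its region with the smallest p, upstream of the start (chr17:34001051-34001800), had 271 and 112 in the second pair, against 113 and 124 in the first. That log2 difference was 0.69 and rested on 1 library: without the first value of the second pair it was -0.08. The start site of H2-K1 itself was in no listed H3K27me3 region.

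The highest H3K27me3 values per length among the member regions lay at the Q genes H2-Q7, H2-Q6 and H2-Q10. How reads that match several copies were placed is not given, so the values at H2-Q6 and H2-Q7 are uncertain. Expressed as the mean of the 4 libraries per kb of region, H2-Q7 (chr17:35436801-35441700) had 913, H2-Q6 had 691 and H2-Q10 had 665 in the region over the start of each gene, against a median of 230 over all second-pair member regions. H2-Q6 and H2-Q7 encode Qa-2 molecules, and H2-Q10 encodes a soluble molecule secreted by liver. H2-Q7 had 5704 and 4538 in the second pair, against 3710 and 3950 in the first, a log2 difference of 0.42. H2-Q6 (chr17:35417501-35425200) had 7129 and 5381 in the second pair, against 3987 and 4793 in the first, a log2 difference of 0.51. The pairs did not overlap at either, and for comparison Q regions higher in the second pair had a median log2 difference of 0.50, and M regions 0.84. H2-Q4 (chr17:35379051-35381200) had 1317 and 1167 in the second pair, against 945 and 936 in the first. H2-Q2 had 3544 and 3265 in the second pair over its start (chr17:35340651-35346300), against 2249 and 2002 in the first. At these regions of both genes the second-pair libraries were the higher, without overlap. Both directions were listed at every Q gene except H2-Q6, with 4 second-pair and 3 first-pair H3K27me3 regions at H2-Q1, 3 and 1 at H2-Q2, and 3 and 4 at H2-Q4. H2-Q1 had 2712 and 2339 in the second pair at chr17:35318951-35322500, against 1496 and 1569 in the first, and 273 and 101 in the second pair at chr17:35325651-35327000, against 427 and 287 in the first.

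Among the T genes, H2-T22, a ligand of gamma-delta T cells, had second-pair H3K27me3 regions along its body. The region over its start (chr17:36039701-36042800) had 903 and 1048 in the second pair, against 416 and 507 in the first, a log2 difference of 1.08. H2-T23 encodes Qa-1, which natural killer cell receptors recognise. Its start site lay in a short region (chr17:36032201-36033150) with 256 and 286 in the second pair, against 162 and 48 in the first, a log2 difference of 1.36. First-pair regions flanked that region on both sides. H2-T24 had 3 first-pair regions and 1 second-pair region. The one with the smallest p (chr17:36018301-36019000) had 2 and 25 in the second pair, against 105 and 242 in the first. The log2 difference of -3.59 was the most negative of all H3K27me3 member regions, and its p in the authors' deposited table was 1.16e-35. A second first-pair region of H2-T24 (chr17:36003401-36004000) had 60 and 0 in the second pair, against 173 and 43 in the first, and these pairs overlapped. The second-pair region of H2-T24 (chr17:36021751-36022100) had 74 and 37 in the second pair, against 29 and 21 in the first. H2-T3, the gene of the TL antigen of intestinal epithelium, had 4090 and 3978 in the second pair over its body (chr17:36180151-36188950), against 3016 and 2814 in the first, a log2 difference of 0.47.

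Of the 12 M genes, 9 had a second-pair and 10 a first-pair H3K27me3 region. The M10 genes, M1, M9 and M11 belong to the group expressed in vomeronasal neurons. H2-M10.4 (chr17:36459401-36462950) had 1259 and 924 in the second pair, against 570 and 496 in the first, a log2 difference of 1.03. H2-M10.5 (chr17:36772151-36775900) had 1437 and 1199 in the second pair, against 676 and 776 in the first. Both start sites lay inside these regions, and the pairs did not overlap at either. At H2-M10.1 the region with the smallest p (chr17:36319901-36321850) had 535 and 500 in the second pair, against 333 and 225 in the first. H2-M10.6 downstream of its body (chr17:36817851-36819600) had 552 and 464 in the second pair, against 217 and 230 in the first, a log2 difference of 1.18. H2-M10.3 (chr17:36364451-36365150) had 114 and 183 in the second pair, against 44 and 71 in the first. All 5 of these M10 genes were higher in both second-pair libraries at the region named, by log2 differences of 0.86 to 1.35. First-pair H3K27me3 regions were also listed, 2 at H2-M10.4, 1 each at H2-M10.1, H2-M10.3 and H2-M10.6, and 0 at H2-M10.5. H2-M5 (chr17:36986751-36990550) had 1907 and 1619 in the second pair, against 1388 and 922 in the first. The body of H2-M9 held the highest positive log2 difference of the H3K27me3 member regions, 2.14, with 171 and 194 in the second pair at chr17:36640501-36641350, against 55 and 26 in the first. H2-M11 downstream of its body (chr17:36552751-36554150) had 132 and 96 in the second pair, against 257 and 359 in the first, a log2 difference of -1.43. H2-M3, which presents N-formylated bacterial peptides, had 14 and 0 in the second pair at chr17:37275301-37275650, against 103 and 50 in the first. At these regions of H2-M11 and H2-M3 the first-pair libraries were the higher, without overlap. H2-M11 also had 2 second-pair H3K27me3 regions. The one over its start (chr17:36546001-36548050) had 409 and 389 in the second pair, against 247 and 231 in the first. H2-M1 (chr17:36666551-36667200) had 70 and 123 in the second pair, against 208 and 111 in the first, and its pairs overlapped.

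Over all members the median log2 difference was 0.71 for H3K27me3 regions higher in the second pair and -0.72 for those higher in the first, beside 0.82 and -0.94 over the regions of all coding genes. The direction of each region is the authors' listing, so these medians describe its size only. The pairs did not overlap in 72 of the 94 second-pair regions and in 24 of the 43 first-pair regions, beside 71.4% and 67.6% in the whole table and 69.2% in either direction. In limma on log2(value + 1) across all listed regions, 0 were called at a Benjamini-Hochberg adjusted p of 0.05 in either direction (0%), and 12.3% had an unadjusted p under 0.05, as did 7 of the 137 member regions. The DM region had a limma log2 difference of 0.96 ± 0.46 (SE) and an adjusted p of 0.361. With 2 libraries per pair, none of the H3K27me3 differences listed by the authors passed this test of the spread between libraries.

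**Figure D2:**
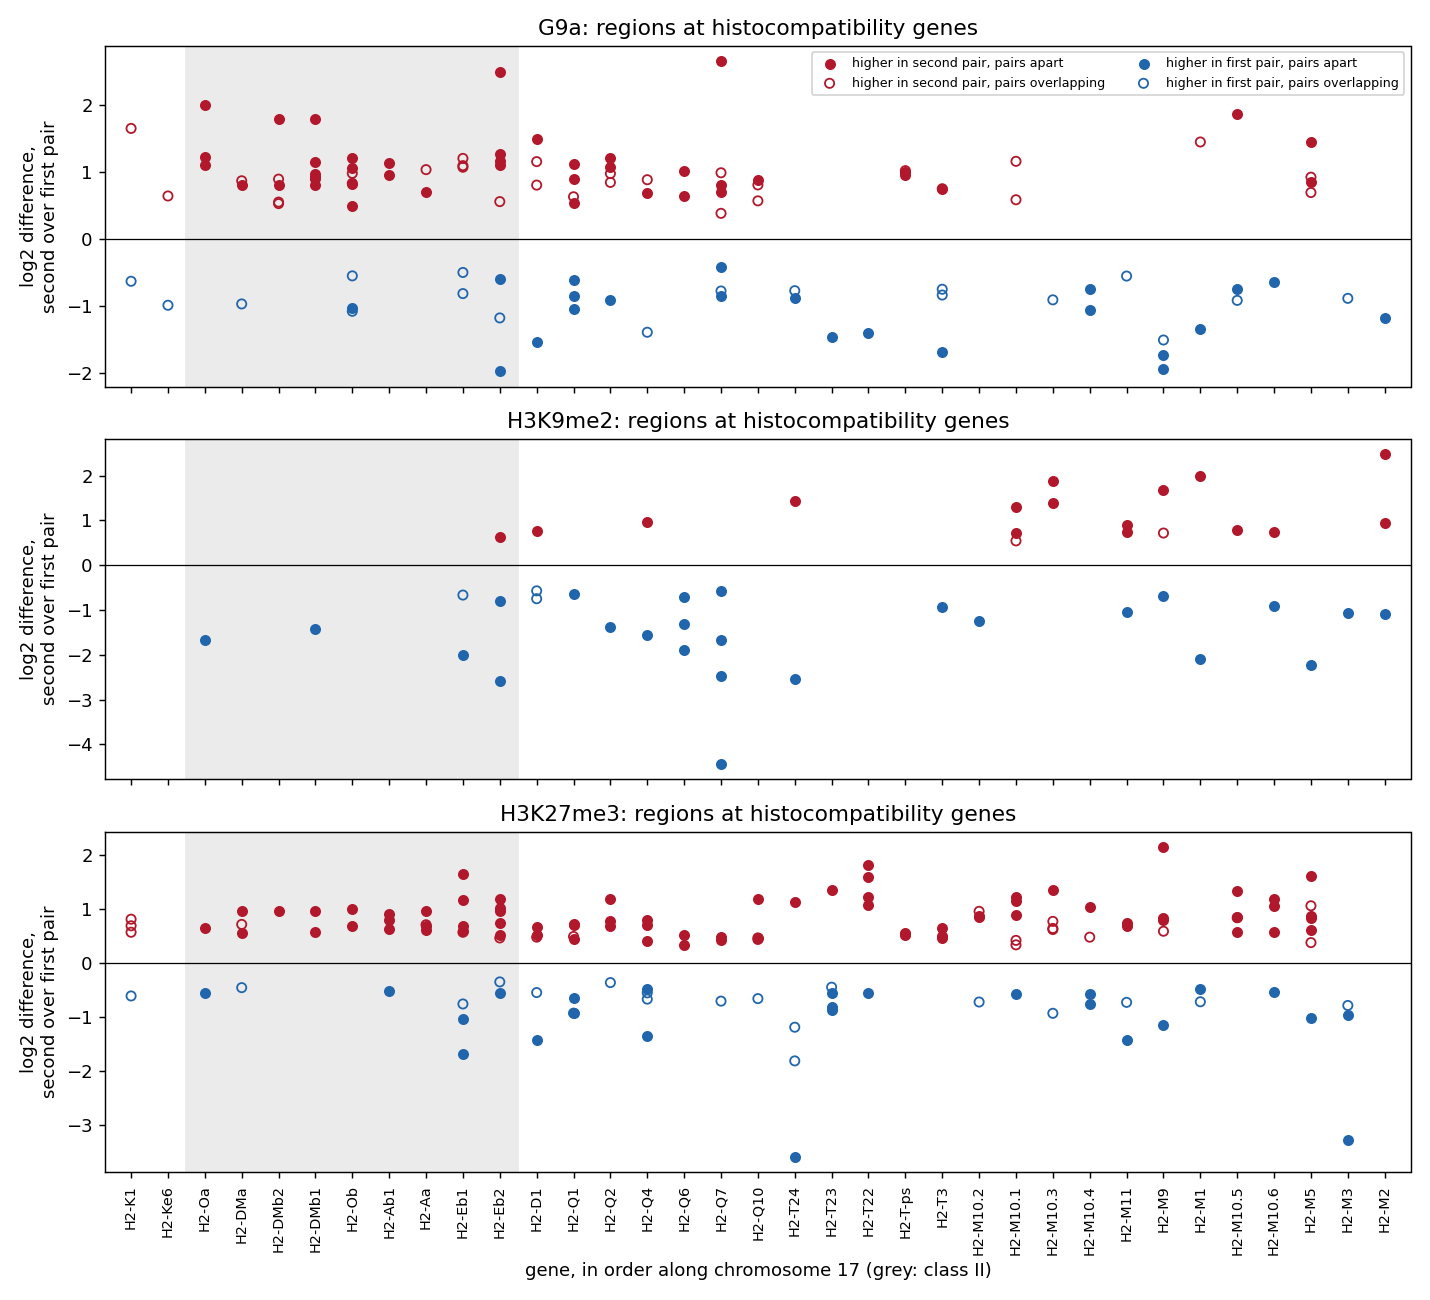
Log2 difference (second over first pair) of every listed region at each member, with genes in order along chromosome 17 and class II shaded grey; filled circles are regions whose pairs do not overlap, open circles regions whose pairs overlap, red higher in the second pair and blue higher in the first. In the H3K27me3 panel red points stand over all class II genes, in the H3K9me2 panel only 1 red point (H2-Eb2, 0.63) stands over class II, and the lowest H3K9me2 point is H2-Q7 at -4.44.

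Annotated start sites fell in H3K27me3 regions of the second pair at 25 of the 32 members with a RefSeq start, and in 0 first-pair regions. Over all 17492 genes with a start the shares were 21.1% and 5.07%. The covered starts belong to 19 class I and 6 class II genes. The 7 starts outside any listed H3K27me3 region were those of H2-K1, H2-Ke6, H2-DMa, H2-Eb2, H2-M1, H2-M2 and H2-M3. For H2-DMa RefSeq lists an upstream start and the region over H2-DMb2 reaches its 3′ part. H3K9me2 regions covered 2 starts in each direction, those of H2-M10.6 and H2-M9 for the second pair and of H2-M11 and H2-T3 for the first, where all genes gave 2.1% and 2.17%. G9a regions of the second pair covered 7 starts (H2-DMb1, H2-DMb2, H2-Ob, H2-Q7, H2-Q10, H2-T-ps and H2-M5) and those of the first pair covered 3 (H2-M9, H2-M11 and H2-M10.6), where all genes gave 9.99% and 5.6%.

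**Figure D3:**
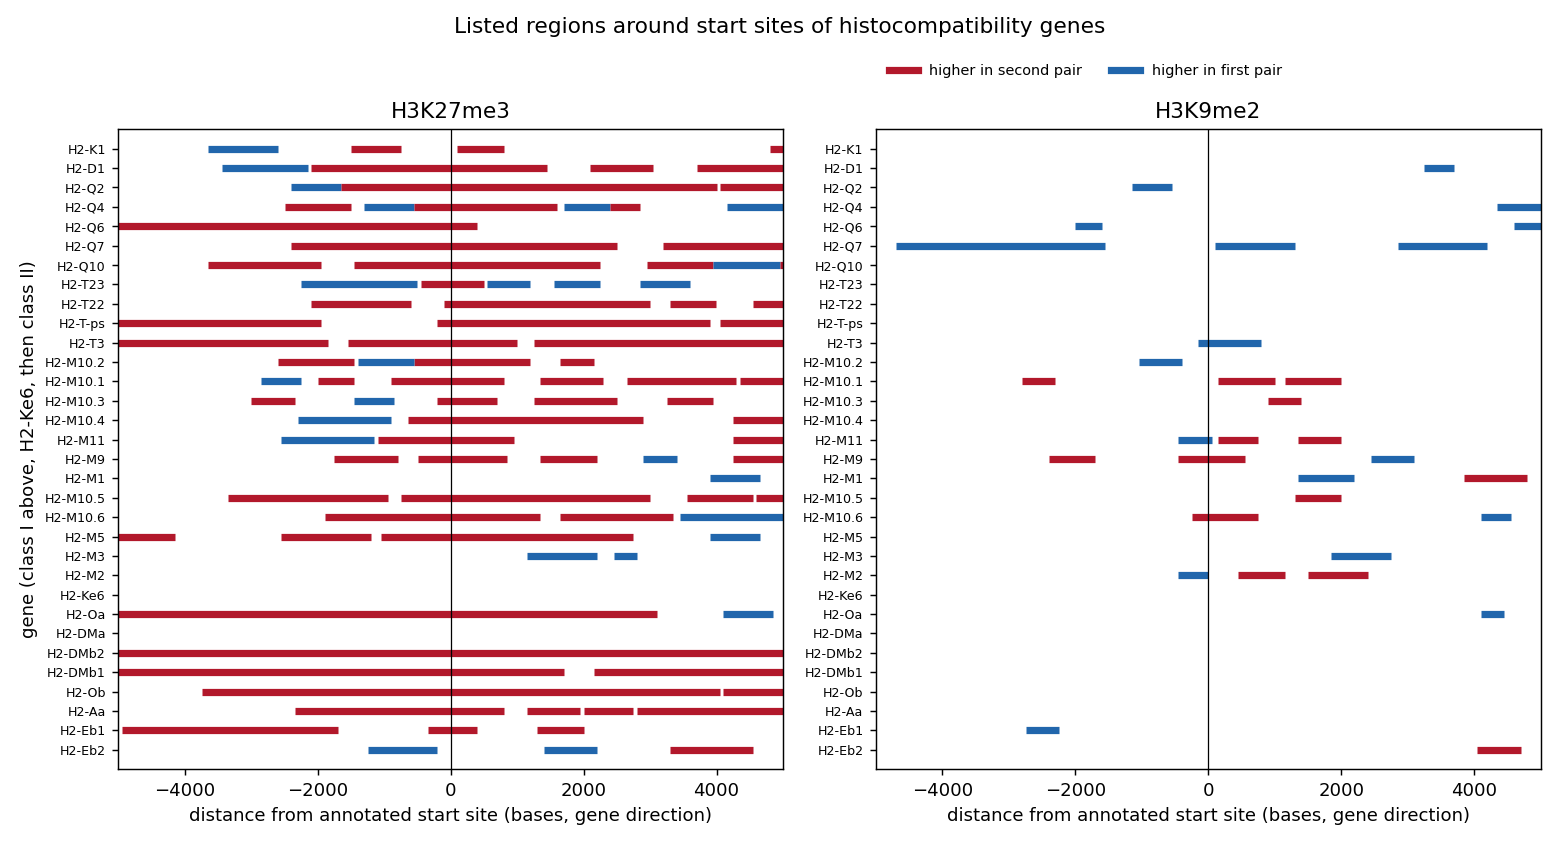
Listed H3K27me3 (left) and H3K9me2 (right) regions around the annotated start site of the 32 members with one, drawn from 5000 bases before to 5000 bases after the start in gene direction; red bars are higher in the second pair and blue bars in the first. Red H3K27me3 bars cross the start of 25 genes and blue bars cross none, and the blue H3K9me2 bars at H2-Q7 lie on both sides of its start.

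G9a regions of the second pair lay at 24 of 35 members (55.8% of all coding genes), and regions of the first pair also at 24 (77.1% of all coding genes). H2-M10.2 had none. All 9 class II genes and all 6 Q genes had a second-pair region, while 4 of 9 class II genes and 9 of 12 M genes had a first-pair one. The regions numbered 70 in the second pair and 40 in the first, where 44.5% and 55.5% of all listed G9a regions took those directions. Class II held 31 second-pair and 9 first-pair regions, and the M genes held 8 and 13. Second-pair regions covered 27.4% of the class II windows, 30.6% of the Q windows and 4.45% of the M windows, and 5.95% of the windows of all coding genes.

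The G9a region with the smallest p lay at H2-Oa (chr17:34093751-34097850), with 1231 and 737 in the second pair, against 280 and 566 in the first. The pairs did not overlap, the log2 difference was 1.22 and the p in the authors' deposited table was 1.27e-49. A second region upstream of the same gene (chr17:34089501-34091700) had 707 and 668 in the second pair, against 296 and 345 in the first. At H2-Eb2 (chr17:34331501-34332550) the values were 122 and 367 in the second pair, against 25 and 61 in the first, a log2 difference of 2.48. The DM genes held a G9a region between H2-DMb2 and H2-DMb1 (chr17:34151101-34152500) with 179 and 405 in the second pair, against 124 and 44 in the first. The 2 second-pair libraries were higher at each of these 4 regions. For I-A the smallest p at H2-Ab1 belonged to chr17:34266151-34266950, with 192 and 172 in the second pair, against 36 and 130 in the first. At H2-Aa the pairs overlapped (chr17:34282451-34283250), with 92 and 198 in the second pair, against 38 and 103 in the first. At H2-Eb1 they overlapped as well (chr17:34303751-34304500), with 84 and 235 in the second pair, against 46 and 92 in the first. In both genes 1 first-pair value lay above the lower second-pair value. The start site of H2-Ob lay in a G9a region (chr17:34238901-34239950) with 189 and 341 in the second pair, against 150 and 80 in the first. H2-DMa and H2-DMb2 shared a region (chr17:34140651-34144600) with 1080 and 816 in the second pair, against 659 and 431 in the first.

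In class I, H2-D1 had 744 and 246 in the second pair downstream of its body (chr17:35269051-35271300), against 107 and 244 in the first, a log2 difference of 1.49. Its pairs were apart by only 2 units, and within the body both directions were listed. There chr17:35264451-35265350 had 22 and 92 in the second pair, against 154 and 181 in the first, and chr17:35263251-35263600 had 29 and 91 in the second pair, against 42 and 11 in the first, with overlapping pairs. H2-K1, the other classical gene, had 57 and 166 in the second pair upstream of its start (chr17:34001301-34001950), against 9 and 61 in the first, with overlapping pairs. Neither classical gene had a G9a region over its start site. H2-M10.5, one of the vomeronasal genes, had 325 and 392 in the second pair (chr17:36773901-36775350), against 96 and 101 in the first, a log2 difference of 1.85. H2-Q7 had 1052 and 817 in the second pair before its start (chr17:35435651-35438300), against 530 and 547 in the first. H2-Q6 (chr17:35421801-35423650) had 623 and 458 in the second pair, against 259 and 278 in the first, a log2 difference of 1.01. At these regions both neighbouring Qa-2 genes were higher in the second pair, but H2-Q7 had 5 second-pair and 3 first-pair G9a regions and H2-Q6 had 2 and 0. H2-Q1 (chr17:35324951-35326300) had 262 and 349 in the second pair, against 159 and 122 in the first. H2-Q2 (chr17:35344401-35345500) had 269 and 211 in the second pair, against 141 and 86 in the first. H2-Q4 (chr17:35376901-35377800) had 133 and 187 in the second pair, against 39 and 134 in the first, and was the only one of these Q genes whose pairs overlapped. H2-T3 had the first-pair region with the smallest p, with 23 and 99 in the second pair at chr17:36189051-36190050, against 225 and 173 in the first, a log2 difference of -1.69. H2-T22 (chr17:36039751-36040750) had 39 and 115 in the second pair, against 223 and 189 in the first. H2-T23 (chr17:36027951-36028800) had 14 and 112 in the second pair, against 122 and 229 in the first, and H2-T24 (chr17:36017751-36018150) had 19 and 52 in the second pair, against 58 and 75 in the first. These 4 T genes were higher in both first-pair libraries at the region named, and H2-T3 also had 2 second-pair G9a regions. At H2-T-ps all 4 G9a regions were higher in the second pair, and the one with the smallest p (chr17:36107801-36110700) had 469 and 642 in the second pair, against 205 and 369 in the first. H2-M9 (chr17:36638001-36638800) had 20 and 90 in the second pair, against 191 and 177 in the first. Over its start site (chr17:36641801-36642800) it had 11 and 128 in the second pair, against 286 and 113 in the first, with overlapping pairs. H2-M10.4 (chr17:36460401-36462150) had 42 and 281 in the second pair, against 377 and 301 in the first, in the same stretch where its H3K27me3 was listed as higher in the second pair. Directions were mixed among the remaining M genes. H2-M10.6 (chr17:36812051-36812650) had 68 and 47 in the second pair, against 97 and 83 in the first. H2-M5 (chr17:36996401-36996750) had 77 and 43 in the second pair, against 15 and 28 in the first. The pairs overlapped in the regions named for H2-M1, H2-M10.1, H2-M10.3 and H2-M11: H2-M1 (chr17:36667651-36668150) had 44 and 136 in the second pair, against 2 and 63 in the first, and H2-M10.1 (chr17:36320051-36320600) had 58 and 118 in the second pair, against 9 and 69 in the first. H2-M10.3 (chr17:36365301-36366150) had 66 and 80 in the second pair, against 80 and 196 in the first, and H2-M11 (chr17:36546751-36547450) had 64 and 98 in the second pair, against 85 and 154 in the first.

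The library with the most zeros, which gives the first value of the second pair, had the lowest of the 4 values at the first-pair regions named for H2-T3, H2-T22, H2-T23, H2-T24, H2-M9, H2-M10.4 and the body of H2-D1. At H2-M3 (chr17:37272001-37272950) the values were 2 and 169 in the second pair, against 151 and 167 in the first, and the log2 difference of -0.89 was 0.09 without that library. Without it, 4 of the 40 first-pair and 0 of the 70 second-pair member regions changed direction (3.64% of member regions, beside 7.2% in the whole table). Without the second value of the second pair 5.45% of them did (5.16% in the whole table), without the first value of the first pair 7.27% (3.96%) and without its second value 0% (3.87%). The pairs did not overlap in 40 of 70 second-pair regions and 22 of 40 first-pair regions, beside 63.1% and 59.8% in the whole table and 61.3% in either direction. In limma 0% of the G9a regions passed an adjusted p of 0.05 in either direction, and 5 first-pair member regions did when the second value of the second pair was left out. In that fit 14.5% of all listed G9a regions passed as higher in the first pair, and the second pair rests on the library with the most zeros alone. An unadjusted p under 0.05 was reached by 3.94% of them and by 1 of 110 member regions, at H2-Q7 (chr17:35445801-35446200), with 79 and 100 in the second pair, against 13 and 14 in the first. Its limma log2 difference was 2.63 ± 0.72 (SE), with an adjusted p of 0.461.

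For H3K9me2, 28 of 46 member regions (60.9%) were listed as higher in the first pair, not far from the 55.6% of all listed regions. Most Q regions were listed as higher in the first pair and most M regions in the second. First-pair regions lay at 20 of 35 members (48.4% of all coding genes) and second-pair regions at 12 (39% of all coding genes). Gene shares depend on window length, so densities are given as well. First-pair regions stood at 74.1 per Mb of member window and second-pair regions at 47.6, beside 42.0 and 31.0 over all coding genes. No H3K9me2 region was listed at 12 members, among them H2-K1, H2-Aa, H2-Ab1, H2-Ob, H2-DMa, H2-T22 and H2-T23. The Q genes held 10 first-pair regions and 1 second-pair region, the class II genes 6 and 1 in that order, and the M genes 8 and 14. Among all listed H3K9me2 regions 44.4% of regions were higher in the second pair and 55.6% in the first.

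H2-Q7 held the H3K9me2 region with the smallest p of all members (chr17:35439301-35440500), which begins within 200 bases after the start site of the promoter printed above. Its values were 13 and 19 in the second pair, against 310 and 425 in the first, the log2 difference was -4.44, and the p in the authors' deposited table was 1.7e-84, the 89th smallest of that table. Its limma log2 difference was -4.44 ± 0.63 (SE), with an unadjusted p of 0.000604 and an adjusted p of 0.389. Upstream of the start of H2-Q7 a longer region (chr17:35434501-35437650) had 331 and 107 in the second pair, against 627 and 768 in the first. Downstream, chr17:35444751-35445300 had 37 and 1 in the second pair, against 120 and 101 in the first. All 4 H3K9me2 regions of H2-Q7 were higher in the first pair without overlap, while H3K27me3 over the same start was listed as higher in the second pair. H2-Q6, the closest copy of H2-Q7, had 119 and 91 in the second pair at chr17:35429401-35430500, against 272 and 250 in the first, a log2 difference of -1.31. H2-Q4 (chr17:35383951-35384650) had 11 and 77 in the second pair, against 104 and 158 in the first. H2-Q2 before its start (chr17:35341151-35341750) had 38 and 36 in the second pair, against 87 and 110 in the first. At H2-Q1 (chr17:35328201-35329350) the values were 104 and 168 in the second pair, against 200 and 226 in the first. The Q genes were thus alike in direction at these regions, each the one with the smallest p of its gene or a further one, and H2-Q10 had none. The only second-pair Q region lay at H2-Q4 (chr17:35386301-35386750), with 101 and 74 in the second pair, against 70 and 18 in the first. The classical gene H2-D1 had its leading H3K9me2 region downstream of the body (chr17:35269851-35270400), with 100 and 106 in the second pair, against 29 and 92 in the first. It was the only second-pair H3K9me2 region of H2-D1, which also had 2 first-pair regions, both with overlapping pairs.

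In class II, H2-Eb1 had 79 and 16 in the second pair within its body (chr17:34312301-34313200), against 108 and 278 in the first. H2-Oa (chr17:34096501-34096850) had 29 and 9 in the second pair, against 45 and 80 in the first. At H2-Eb2 (chr17:34342951-34343300) the values were 22 and 0 in the second pair, against 92 and 50 in the first. At each of these 3 regions both first-pair libraries were the higher. H2-DMb1 (chr17:34161101-34161700) had 33 and 51 in the second pair, against 77 and 151 in the first. The only second-pair H3K9me2 region of class II was at H2-Eb2 (chr17:34329751-34330400), with 149 and 102 in the second pair, against 80 and 82 in the first.

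The M genes gave the second-pair H3K9me2 regions with the smallest p. H2-M1 had 231 and 247 in the second pair downstream of its body (chr17:36667401-36668350), against 89 and 29 in the first. Within the body of the same gene (chr17:36670001-36670850) the direction was the opposite, with 28 and 47 in the second pair, against 147 and 179 in the first. H2-M2 had 136 and 152 in the second pair (chr17:37482451-37483150), against 5 and 45 in the first, a log2 difference of 2.48. Over the start of H2-M9 (chr17:36642151-36643150) the values were 296 and 107 in the second pair, against 99 and 25 in the first. H2-M10.3 had 2 second-pair regions, of which chr17:36362301-36363150 had 147 and 244 in the second pair, against 65 and 83 in the first, and chr17:36367001-36367500 had 128 and 75 in the second pair, against 31 and 23 in the first. Further M genes had smaller differences in the same direction. H2-M10.1 (chr17:36328501-36329000) had 103 and 98 in the second pair, against 11 and 70 in the first. H2-M11 (chr17:36548451-36549100) had 96 and 128 in the second pair, against 79 and 41 in the first. H2-M10.5 (chr17:36774201-36774900) had 126 and 153 in the second pair, against 87 and 74 in the first. Over the start of H2-M10.6 (chr17:36811951-36812950) the values were 176 and 224 in the second pair, against 129 and 109 in the first. The pairs were apart at all 4 of these regions. Other members of the family took the opposite direction. H2-M3 (chr17:37272051-37272950) had 36 and 113 in the second pair, against 188 and 126 in the first. H2-M5 (chr17:36999951-37000700) had 38 and 31 in the second pair, against 132 and 200 in the first. Among the T genes H2-T24 had 165 and 129 in the second pair at chr17:36015001-36015800, against 93 and 15 in the first. It also had 21 and 10 in the second pair at chr17:36017751-36018200, against 63 and 127 in the first. Over the start of H2-T3 (chr17:36189401-36190350) the values were 111 and 70 in the second pair, against 133 and 217 in the first.

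Of the 18 second-pair H3K9me2 regions 16 had pairs that did not overlap, and of the 28 first-pair regions 25, beside 66.3% and 69.2% in the whole table and 67.9% in either direction. In limma 0% passed an adjusted p of 0.05 in either direction, while 8.75% of all listed regions and 10 of the 46 member regions had an unadjusted p under 0.05. Those 10 lay at H2-Q6, H2-Q7, H2-T24, H2-Eb2, H2-M1, H2-M2, H2-M5 and H2-M10.3.

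**Figure D4:**
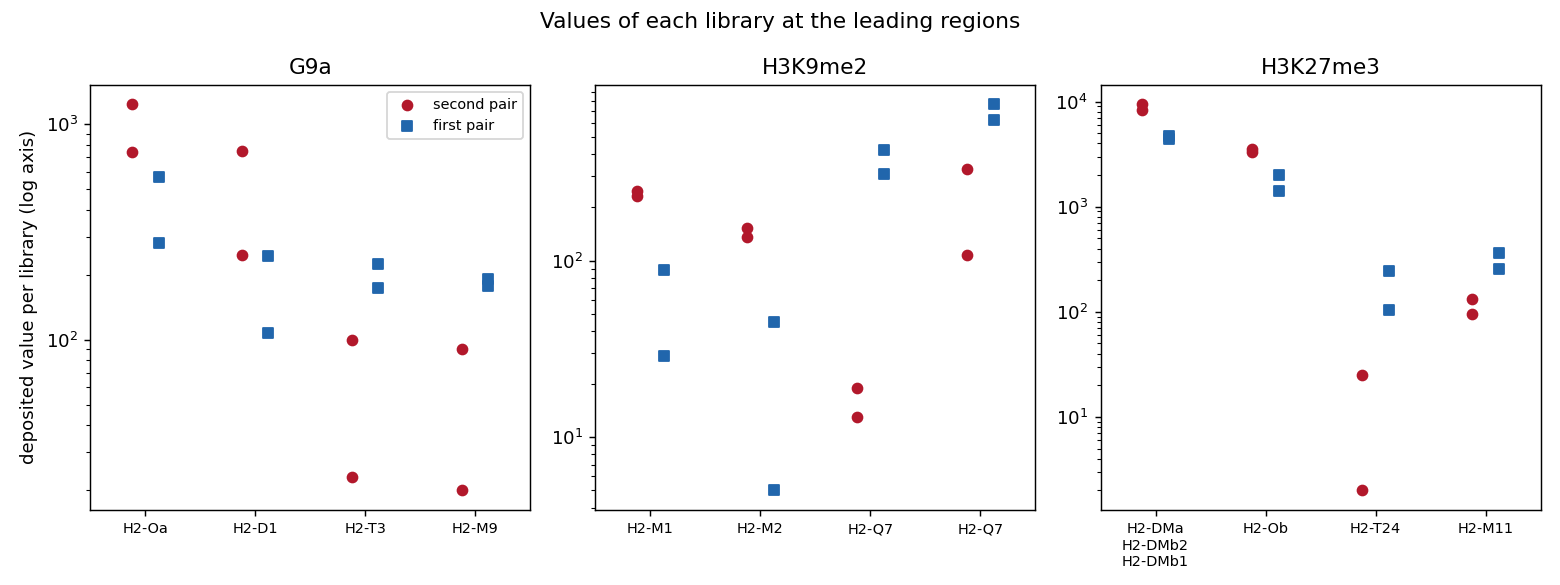
Deposited value of each library (log axis) at the 2 regions per direction with the smallest p in each table; red circles are the second pair and blue squares the first, and the first 2 regions of each panel are those listed as higher in the second pair. The H2-DM region of H3K27me3 shows 9431 and 8333 beside 4401 and 4739, and the lower H2-Q7 region of H3K9me2 shows 13 and 19 beside 310 and 425.

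Class I and class II were compared within each library by the log2 ratio of the summed values of their regions. For H3K27me3, class II regions summed to 43836 and 40200 in the second pair, against 26130 and 25164 in the first, and class I regions to 69162 and 57374 in the second pair, against 46755 and 44262 in the first. The log2 ratio of class I over class II was thus 0.59 in the second pair and 0.83 in the first on average, a difference of -0.24. For G9a the ratio was 0.34 in the second pair and 0.75 in the first, a difference of -0.41, from class II sums of 7447 and 9138 in the second pair, against 4920 and 5401 in the first. For H3K9me2 it was 3.51 in the second pair and 2.75 in the first, a difference of 0.76, but the class II sums were small, 506 and 244 in the second pair, against 657 and 824 in the first. These sums run over regions that the authors listed because the same pairs differ, so the ratio describes the mix of listed regions and is no independent comparison of the classes. The exact permutation test over the 4 libraries gave a two-sided p of 0.333 for each, the smallest that 2 against 2 libraries allow. Density gave the same order for G9a: second-pair regions stood at 153 per Mb of class I window and 251 per Mb of class II window, with 62.0 per Mb over all coding genes. For H3K27me3 the order by number was the other one, 279 per Mb for class I and 203 for class II, with 82.2 over all coding genes, and the class II regions were longer, with a median width of 2650 bp, against 1350 bp in class I.

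Many member regions of one table overlapped member regions of another, and the share is given beside that of the whole table. Of the second-pair G9a regions, 58 of 70 (82.9%) overlapped a second-pair H3K27me3 region, and 52.3% did in the whole table. Of the first-pair G9a regions, 27 of 40 (67.5%) also overlapped a second-pair H3K27me3 region, and 23.4% did in the whole table. Most listed G9a regions of either direction at the members thus touched a second-pair H3K27me3 region. Of the second-pair H3K27me3 regions, 37 of 94 (39.4%) overlapped a second-pair G9a region, and 30.8% did in the whole table. First-pair H3K9me2 regions overlapped second-pair H3K27me3 in 14 of 28 cases (50%), with 22.8% in the whole table, and second-pair G9a in 12 of 28 (42.9%), with 12.6% in the whole table. Since second-pair H3K27me3 covers far more of these windows than of others, such overlaps had more sequence to fall on, and the difference from the whole table was not tested. Whether the 3 antibodies were used on chromatin of the same hearts is not given.

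Of 29 other coding genes of antigen processing and presentation, 16 had a second-pair H3K27me3 region, where 50.7% of all coding genes did, and 17 a first-pair one, where 58.6% did, and 11 had none. Most genes named here had regions of both directions, and values are of the region with the smallest p in a direction. Nlrc5, the transactivator of class I genes, had 3230 and 2840 in the second pair, against 1881 and 1523 in the first, at 1 of its 28 second-pair H3K27me3 regions, and at 1 of its 16 first-pair regions 581 and 772 in the second pair, against 1027 and 1353 in the first. Ciita, the transactivator of class II genes, had 2267 and 1760 in the second pair, against 1122 and 933 in the first, a log2 difference of 0.97, at 1 of 10 second-pair regions, beside 3 first-pair ones. Fcgrt, the neonatal Fc receptor and a class I relative outside the complex, had 1207 and 1265 in the second pair, against 344 and 571 in the first. Ctss, a protease that trims the class II invariant chain, had 8 second-pair and 7 first-pair regions. Its second-pair region with the smallest p had 581 and 673 in the second pair, against 232 and 406 in the first, and its first-pair region with the smallest p had 44 and 171 in the second pair, against 264 and 312 in the first.

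For G9a, 15 genes of this list had a second-pair region (55.8% of all coding genes), 23 a first-pair region (77.1% of all coding genes) and 5 none. Irf1, an interferon-induced activator of class I genes, had 27 and 35 in the second pair, against 234 and 299 in the first, a log2 difference of -3.06. Fcgrt had 7 and 23 in the second pair, against 159 and 225 in the first. Nlrc5 had 22 second-pair and 14 first-pair G9a regions, and the one with the smallest p had 427 and 329 in the second pair, against 70 and 158 in the first. Ciita had 7 second-pair and 8 first-pair G9a regions. The region with the smallest p of the gene had 10 and 115 in the second pair, against 240 and 301 in the first, and the second-pair region with the smallest p had 102 and 228 in the second pair, against 0 and 64 in the first. Rfx5, an X-box factor, had a second-pair region with 233 and 166 in the second pair, against 22 and 121 in the first, and a first-pair region whose pairs overlapped, with 100 and 241 in the second pair, against 926 and 82 in the first. For H3K9me2, 6 genes had a second-pair region (39% of all coding genes), 8 a first-pair region (48.4% of all coding genes) and 18 none. Ciita had both, with 165 and 364 in the second pair, against 75 and 85 in the first, at one region and 45 and 37 in the second pair, against 153 and 196 in the first, at another. Rfxap, a partner of Rfx5, had 22 and 0 in the second pair, against 97 and 113 in the first, and Ctss, with 1 second-pair and 6 first-pair regions, had 3 and 39 in the second pair, against 150 and 94 in the first. Azgp1, a class I-like lipid-binding protein gene, had 205 and 335 in the second pair, against 62 and 146 in the first. Rfx5 had 55 and 215 in the second pair, against 15 and 99 in the first, with overlapping pairs.

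The tables list differences in chromatin and not expression, so they cannot check the labelled cell type. A gene without a listed region may be marked alike in both pairs or not marked. What can be given is how many marker genes of each cell type have a listed region. The counts below stand beside 50.7% and 58.6% of all coding genes with a second-pair and a first-pair H3K27me3 region, 55.8% and 77.1% with a G9a region and 39% and 48.4% with an H3K9me2 region, in the same order. Of 12 cardiomyocyte genes, 0 had an H3K27me3 region in either direction, 3 had a second-pair and 5 a first-pair G9a region, and 2 had a second-pair and 1 a first-pair H3K9me2 region. Of 15 leukocyte genes, 14 had a second-pair and 12 a first-pair H3K27me3 region, with summed values of 79528 and 67550 in the second pair, against 60327 and 53575 in the first, and only Cd68 had none. Of 8 endothelial genes, 8 had a second-pair and 7 a first-pair H3K27me3 region, and of 6 fibroblast genes 5 and 3 in that order. Endothelial H3K27me3 sums were 111317 and 94546 in the second pair, against 75229 and 70047 in the first, and fibroblast sums were 36600 and 30794 in the second pair, against 24542 and 24087 in the first. For G9a, second-pair and first-pair regions lay at 13 and 14 of the leukocyte genes, 8 and 7 of the endothelial genes and 6 and 6 of the fibroblast genes. For H3K9me2 the counts in that order were 9 and 8 of the leukocyte, 5 and 7 of the endothelial and 3 and 3 of the fibroblast genes. In chromatin of a mixed population, a change in the share of cells that carry a mark and a change in the mark per cell cannot be told apart, and the part of other cell types in the values at the histocompatibility genes was not tested.

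The window rule has an edge, and the closest regions on either side of it were these. For H3K27me3 the closest region inside, at H2-Q6 by 5 bp, had 576 and 421 in the second pair, against 419 and 377 in the first, and the closest outside, 25 bp beyond the window of H2-M10.6, had 110 and 61 in the second pair, against 120 and 132 in the first. For G9a the closest inside, at H2-M10.5 by 235 bp, had 43 and 75 in the second pair, against 93 and 106 in the first, and the closest outside lay 50 bp beyond the window of H2-T3, with 114 and 56 in the second pair, against 115 and 138 in the first. For H3K9me2 the closest inside, at H2-D1 by 147 bp, is the downstream region given above, and the closest outside lay 16 bp beyond the window of H2-M10.5, with 157 and 195 in the second pair, against 164 and 83 in the first.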

How the data were processed

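The labels describe 14 ChIP-seq libraries, of which 12 are immunoprecipitations. The submitters' processing notes name BWA 0.7.10-r789, SAMtools 1.1 and the build mm10 (GRCm38), and libraries were made with a NuGEN Ovation Ultralow V2 kit, per the labels' protocols. The program that called the regions, its scaling and its use of the inputs are not stated in those notes or labels. In column 11 of each of 3 tables without headers the authors deposited 4 whole numbers and a -log10 p-value. The deposited values were not treated as raw counts, and read depth behind them is unknown, so no interval is given. Inputs were not used here.

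Genes and start sites came from RefSeq tables of GRCm38.p6. All regions of a table entered 1 limma 3.58.1 fit (R 4.3.3) on log2(value + 1), which understates differences of low values, with Benjamini-Hochberg adjustment at 0.05, tested on simulated data first. Summaries used pandas 2.3.3, numpy 2.4.6 and scipy 1.17.1, and figures matplotlib 3.10.9. p-values over 2 libraries per pair measure only the spread between these libraries.

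Regions were named by deposited p, smallest first: 6 for each direction of each table, the region with the smallest deposited p in each table for 14 fixed genes and for the genes present in all tables, and the leading 3 pathway genes per table and direction. Other regions printed were chosen after their values were seen. For H3K27me3 they lie at H2-Aa, H2-Oa, H2-DMb1, H2-Eb1, H2-T22, H2-T24, H2-M10.4, H2-M11 and Ctss. For G9a they lie at H2-Q7, H2-T-ps, H2-D1 and Ciita, and for H3K9me2 at H2-Eb2 and H2-Q4. One pathway gene of 30, Cd1d2, is not protein-coding and dropped out. One other gene that this rule names is not reported here. The genes and lists were chosen with earlier results of these data known.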

Additional observations from a re-analysis of the deposited data

How the results depend on the processing

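The differences between class I and class II kept their direction under all alternatives, between -0.57 and -0.29 for G9a, -0.31 and -0.13 for H3K27me3 and 0.24 and 1.47 for H3K9me2. Scaling a library multiplies both of its sums alike, so scaling could hardly move this ratio and is no test of it. Limma calls at the members stayed at 0 except in the G9a table, where first-pair calls ranged from 0 to 5 when 1 library was left out, the 5 without the second value of the second pair, where the remaining library is assumed to vary like the others and 14.5% of the whole table was called in that direction. At a deposited p of 0.0001 or below, G9a density fell to 100.9 per Mb (class I, second pair), 170 (class II, second pair) and 64.6 (class I, first pair), and class II H3K9me2 density in the second pair to 0. There, 7 members had a second-pair H3K9me2 region, and 100% of H3K9me2 regions in either direction had pairs apart. With gene bodies alone, 12 members had a first-pair H3K9me2 region and 11 a first-pair H3K27me3 region. In each case fewer regions were counted. Shares of all regions and of all genes at these settings are not given, so the counts show nothing particular to the members. A stricter p can itself favour regions whose pairs are apart. Scaling libraries to the same median moved the median of a whole table by 0.28 (G9a), 0.17 (H3K9me2) and 0.28 (H3K27me3) on the log2 scale, and scaling to the same sum by -0.16, 0.07 and -0.16. It changed the direction of 0 member regions. The smallest size of a log2 difference among them was 0.32, above these median shifts, so little change of direction could occur. Scaling to the same sum, the direction without each library in turn and the shares of separated regions were added after seeing the data. No paired analysis was possible because the deposited values carry no replicate numbers. The unknown order of the pairs limits every statement about TAC and sham.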
